A study of Mus musculus with 15 samples.

Results

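Cultured mouse mammary epithelial cells that had lost p53 and received a MYC retrovirus (p53- Myc+) were compared with wild type cells (WT) on Affymetrix Mouse Gene arrays, with 3 arrays in each group and 6 of the 15 arrays of the series in all. The arrays were chosen by their titles alone. Per the labels, cells came from mammary glands of 8-week-old female mice and were grown in DMEM/F12 with 5% horse serum, 20 ng/mL EGF, 10 μg/ml insulin, 1 ng/ml cholera toxin and 100 μg/ml hydrocortisone. WT cells are labelled wild type for p53, Rb and MYC. In p53- Myc+ cells p53 was removed by Cre recombinase from an adenovirus, MYC was added by a retrovirus, and Rb is labelled wild type. Another 2 groups of 3 arrays serve as reference points, namely cells without p53 and without added MYC (p53-) and cells without p53 and Rb that carry the MYC retrovirus (p53- Rb- Myc+). All groups were harvested while proliferating. The labels do not say whether WT cells received any control virus, whether p53- Myc+ cells are 1 clone or a mixed population, or whether the arrays within a group stem from different animals or different cultures. The p-values therefore measure the spread between these arrays, part of which may be technical. Virus exposure and genotype cannot be told apart in this comparison.

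The p53 protein is a transcription factor that halts the cell cycle or triggers cell death after DNA damage or oncogene activity, and it is often lost in breast cancer. MYC is a transcription factor that pairs with MAX, binds E-box DNA elements and drives genes for ribosome production, nucleotide synthesis and cell division. Loss of p53 removes a barrier that otherwise opposes high MYC. The normal mammary epithelium has an inner luminal layer rich in keratins 8 and 18 and an outer basal layer rich in keratins 5 and 14, and both are held together by E-cadherin, claudins and desmosomes.

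Each array gave 35556 probe set intensities on a linear scale, and 19938 genes had a probe set with a single gene symbol. Median intensities were 47.08, 46.81 and 41.28 in the WT arrays and 46.54, 46.53 and 41.86 in the p53- Myc+ arrays. The p53- arrays stood higher, at 53.50, 49.64 and 54.90. Over all genes, log2 intensities correlated at 0.963 to 0.975 among WT arrays, at 0.964 to 0.977 among p53- Myc+ arrays and at 0.775 to 0.804 between these groups. WT and p53- arrays correlated at 0.904 to 0.952, and p53- Myc+ and p53- Rb- Myc+ arrays at 0.946 to 0.968.

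Changes are log2 fold changes ± SE on the scale log2(intensity + 16), which understates folds of weakly measured genes. A gene passed at a limma adjusted p under 0.05 over all genes, and "rose" and "fell" are used for genes that passed. Of 19938 genes, 8820 (44.2%) passed between p53- Myc+ and WT arrays, 4657 (23.4%) with higher and 4163 (20.9%) with lower values in p53- Myc+. The arrays of both groups did not overlap for 9488 genes (47.6%). The median change of all genes was 0.07. Rises made up 52.8% of the calls, 61.1% with each array centred on its median and 57.5% with quantile normalization. On the deposited scale large falls outnumbered large rises: 119 genes rose and 833 fell by at least 4-fold, 12 rose and 379 fell by at least 8-fold, and 0 rose and 69 fell by at least 32-fold (limma, 9993 genes at an unadjusted p under 0.05). In 94 of the 1388 genes whose WT arrays all stood at 500 or above, all p53- Myc+ arrays stood under 32. The opposite pattern was found for 1 gene, Brinp3. With p53 loss alone, 0 genes went from 500 or above in WT to under 32. Against p53- arrays, 6640 genes (33.3%) passed, and 39.2% of these calls were rises; that share was 59.2% with each array centred on its median and 56.2% with quantile normalization instead. All genes had a median change of -0.09 on the deposited scale and of 0.11 after either adjustment. Directions against p53- are therefore given for the deposited scale, where 13.1% of all genes rose and 20.2% fell. Between p53- and WT arrays 19.3% of all genes rose and 9.71% fell. That comparison was not repeated after either adjustment, so its counts also hold for the deposited scale only. Of the 94 genes, 43 stood at 500 or above in all p53- arrays and 74 stood under 32 in all p53- Rb- Myc+ arrays.

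**Figure D1:**
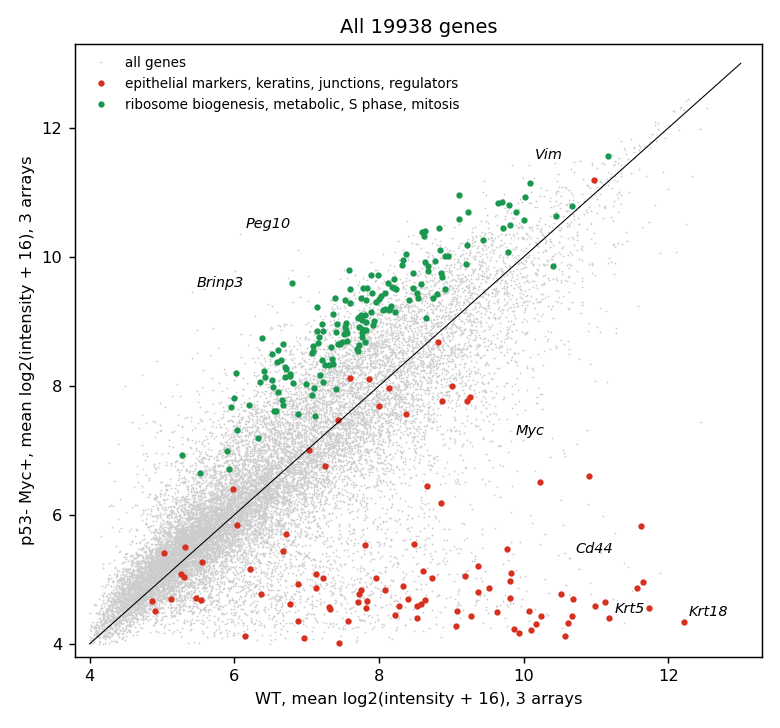
Mean log2(intensity + 16) over the 3 WT arrays (x axis) against the 3 p53- Myc+ arrays (y axis) for 19938 genes (grey), with epithelial lists in red and growth and division lists in green; the line marks equal values. Red points spread along the bottom edge, down to Krt18, while green points lie in a band just above the line.

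The genes named in the labels were examined first. The mouse Myc probe set read 940.1, 877 and 846 in WT arrays and 114, 108 and 162 in p53- Myc+ arrays, a change of -2.67 ± 0.17 (adjusted p = 1.04e-11). All p53- Myc+ arrays lay below all WT arrays, and p53- arrays averaged 929.8 ± 105 (SD, n = 3). The labels do not give the species or extent of the MYC insert, so this probe set does not check the MYC label, and the arrays are called by their label throughout. Rb1 is labelled wild type in both groups. It read 86.5, 88.1 and 104 in WT and 48, 26.8 and 34.4 in p53- Myc+ arrays, a change of -1.07 ± 0.16 (adjusted p = 1.12e-05), with no overlap. In the p53- Rb- Myc+ arrays, which are labelled as lacking Rb, Rb1 averaged 18.7 ± 1.09 (SD, n = 3). Rb1 rose with p53 loss alone (0.71 ± 0.16). The p53 gene itself was not analysed here.

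Most markers of the labelled cell type were near the floor of the array in p53- Myc+ cells. Of 27 luminal markers measured, 23 fell and 0 rose, against 20.9% and 23.4% of all genes, with a median change of -3.96. Of 27 basal markers, 19 fell and 0 rose, with a median of -2.94. With p53 loss alone 11 luminal markers fell and 0 rose, and 5 basal markers fell and 2 rose. The shares of all genes there were 9.71% and 19.3%. All 3 p53- Myc+ arrays stood under 32 for 20 of the luminal and 18 of the basal markers. The summed level of the luminal list ran from 31147 to 32392 in WT arrays, from 24969 to 28048 in p53- arrays and from 961 to 1068 in p53- Myc+ arrays. For the basal list the sums were 17442 to 18493, 13902 to 16433 and 3630.1 to 3787.

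Krt18, which pairs with Krt8 in the luminal keratin filament, read 4881, 4766 and 4526 in WT and 10.7, 0.471 and 3.18 in p53- Myc+ arrays (-7.86 ± 0.17, adjusted p = 3.9e-19). These p53- Myc+ readings are at the floor of the scale, so the size of such a fall is limited by the WT level, and falls that end there have no order among them. In p53- arrays Krt18 averaged 4669 ± 305 (SD, n = 3), close to WT. Its partner Krt8 read 3069, 3094 and 3212 and then 86, 9.45 and 55.4 (-5.78 ± 0.32). The p53- Myc+ arrays differed from each other more for Krt8 than for Krt18 in absolute level, yet all lay far below every WT array. Epcam, a surface adhesion protein of epithelia, read 1584, 1519.7 and 1776 in WT and 5.74, 13.8 and 11.2 in p53- Myc+ arrays (-5.98 ± 0.17). Gata3, a transcription factor needed for luminal cells, averaged 521 ± 67.3 in WT and 3.58 ± 2.26 in p53- Myc+ arrays (SD, n = 3).

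On the basal side, Krt5 read 2240.2, 2267 and 2426 in WT and 10, 0.389 and 6.14 in p53- Myc+ arrays (-6.78 ± 0.18, adjusted p = 4.3e-18). Its filament partner Krt14 read 2253, 2168 and 2258 (WT) and 17.7, 10.6 and 1.6 (p53- Myc+) (-6.48 ± 0.20). Trp63, the transcription factor that maintains basal cells, read 310.1, 272 and 392 (WT) and 12.2, 12.5 and 5.66 (p53- Myc+) (-3.70 ± 0.18). None of these groups of arrays overlapped. The contractile genes of the basal layer were mixed: Acta2 (smooth muscle actin), Tagln and Mylk did not pass, with changes of 0.22 ± 0.18, -0.13 ± 0.22 and -0.02 ± 0.19, whereas Cnn1 (calponin) fell (-3.47 ± 0.21).

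Fibroblast markers were not lost as a set. Of 24, 11 rose and 4 fell (median 0.42), against 23.4% and 20.9% of all genes. With p53 loss alone 2 rose and 12 fell, against 19.3% and 9.71%. In p53- Rb- Myc+ against WT arrays 8 rose and 8 fell, a comparison whose share of all genes was not counted. The summed level was 11318 to 12248 in WT, 11066 to 11570.5 in p53- and 13034 to 14214 in p53- Myc+ arrays. In p53- Rb- Myc+ arrays it was 9531 to 10500, below all WT arrays. Pdgfra, a growth factor receptor of mesenchymal cells, read 86.6, 79.5 and 127 in WT and 705, 636 and 510.2 in p53- Myc+ arrays (2.49 ± 0.19, adjusted p = 3.35e-10). Dpt (dermatopontin) averaged 76.1 ± 26.3 in WT, 31 ± 2.36 in p53- and 456 ± 64.8 in p53- Myc+ arrays (SD, n = 3; 2.39 ± 0.20). The type I collagen genes Col1a1 and Col1a2 rose by less (0.68 ± 0.16 and 0.93 ± 0.16), and Pdgfrb (0.16 ± 0.19) and Dcn (-0.40 ± 0.17) did not pass. The 4 that fell were Mfap5 (-2.95), Thy1 (-2.55), Lum (-1.98) and Fn1 (-1.83).

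Endothelial and leukocyte markers included falls and no rises, beside 20.9% and 23.4% of all genes. Of 15 endothelial markers 8 fell and 0 rose, with Cdh5 (VE-cadherin) at 171, 223 and 260.2 in WT and 9.54, 0.93 and 7.15 in p53- Myc+ arrays and Pecam1 at 45.8, 66.4 and 105 (WT) and 2.22, 6.36 and 2.63 (p53- Myc+). The endothelial sums were 1114 to 1325 in WT, 842 to 922 in p53- and 438 to 472 in p53- Myc+ arrays. Of 21 leukocyte markers 10 fell and 0 rose, with sums of 2707 to 3027, 971 to 1127 and 614 to 639. Ptprc (CD45), which defines leukocytes, stood at 23.5, 16.1 and 19.1 in WT and 33.9, 19.4 and 41.6 in p53- Myc+ arrays and did not pass (0.40 ± 0.23), and Cd68 fell (-1.48 ± 0.17). The falling leukocyte genes were led by Cd14 (-5.29) and Lyz2 (-4.02).

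Among 8 Schwann cell markers 4 fell and 0 rose, against 20.9% and 23.4% of all genes. The falls were Sox10 (-3.92), Erbb3 (-2.90), Mbp (-1.70) and S100b (-0.77). The sums were 1054 to 1309 in WT and 319 to 536 in p53- Myc+ arrays. Of 10 adipocyte markers 1 rose and 2 fell, and neither count exceeded the share of all genes (23.4% and 20.9%). Lpl (lipoprotein lipase) rose (1.55 ± 0.16), Fabp4 fell (-2.42 ± 0.24) and Pparg fell (-0.83 ± 0.25). Pparg no longer passed without WT replicate 1 or without p53- Myc+ replicate 1 (adjusted p = 0.0629 and 0.0618). The defining Adipoq (0.24 ± 0.19) and Plin1 (-0.09 ± 0.19) did not pass. Adipocyte sums were higher in p53- Myc+ arrays, at 1056 to 1237, than in WT arrays, at 837 to 1051, without overlap. A sum can be carried by few members, and the median change of this list was 0.08, beside 0.07 for all genes. In the muscle and pericyte list 4 of 11 fell and 0 rose, against 20.9% and 23.4% of all genes. The falls were Des (-1.26), Cspg4 (-1.18), Notch3 (-0.95) and Rgs5 (-0.83). Myod1 did not pass, and the sums were 380.1 to 573 and 302 to 351. RNA was taken from whole cultures, so fewer cells of a type and less RNA per cell cannot be told apart. The part of these markers in the other results was not tested.

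**Figure D2:**
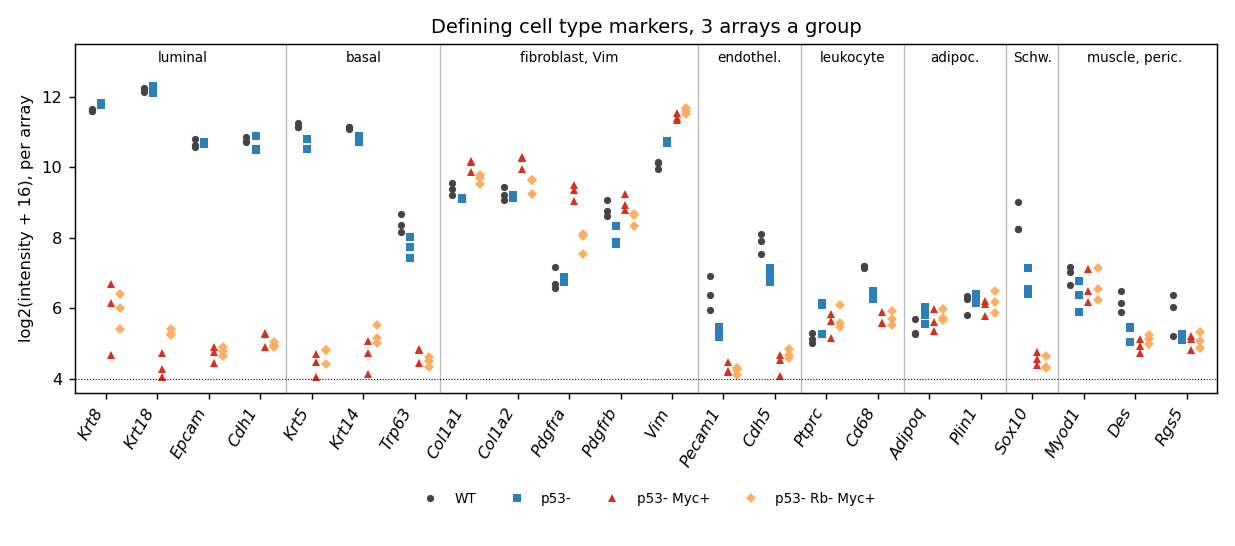
Each point is 1 array; the y axis is log2(intensity + 16) and the dotted line marks an intensity of 0; grey circles are WT, blue squares p53-, red triangles p53- Myc+ and orange diamonds p53- Rb- Myc+ arrays. Most luminal and basal markers stand near the dotted line in both MYC groups and high in WT and p53- arrays, whereas Pdgfra and Vim are highest in MYC arrays. Krt8 stands clearly above the dotted line in some p53- Myc+ arrays.

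The keratin, junction and epithelial regulator genes that hold an epithelial sheet together fell in large numbers. Of 15 keratins 11 fell and 0 rose (median -3.72). Of 16 tight junction genes 14 fell and 0 rose (median -2.41). Of 11 desmosome genes 10 fell, the exception being Pkp2 (-0.16 ± 0.16), and of 8 hemidesmosome and laminin-332 genes 6 fell, with Plec and Dst not passing. With p53 loss alone the medians of these 4 lists were -0.08, -0.27, 0.08 and -0.20, beside a median of 0.12 for all genes. There 5 keratin, 6 tight junction, 2 desmosome and 1 hemidesmosome genes fell, against 9.71% of all genes. The only rise was 1 hemidesmosome gene, against 19.3% of all genes. In p53- Myc+ against WT arrays, some lists had 0 rises. For these, limma at an unadjusted p under 0.05 counted 1 rise each in the basal, endothelial, keratin and hemidesmosome lists. The count was 2 in the muscle and pericyte list, and 0 in the luminal, leukocyte, Schwann cell, tight junction, desmosome and EGF family lists.

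Cdh1 (E-cadherin), the adhesion molecule of the epithelial adherens junction, read 1652, 1686 and 1841 in WT, 1439, 1889 and 1432 in p53- and 13.9, 23.5 and 22.6 in p53- Myc+ arrays. It fell by 5.61 on the log2 scale against WT (adjusted p = 1.72e-17), and the p53- arrays overlapped WT. Jup (plakoglobin), shared by adherens junctions and desmosomes, read 2157, 2219 and 2107 (WT) and 35.2, 59.1 and 50 (p53- Myc+) (-5.10 ± 0.18). The mesenchymal cadherins Cdh11 (1.11 ± 0.17) and Cdh2 (N-cadherin, 0.76 ± 0.18) rose, and Cdh2 averaged 397 ± 67 in WT, 863 ± 34.3 in p53- and 684 ± 113 in p53- Myc+ arrays (SD, n = 3). Dsp (desmoplakin), which ties desmosomes to keratin, read 731, 603 and 615 in WT and 13.6, 15 and 7.92 in p53- Myc+ arrays (-4.57 ± 0.17). Itgb4, the integrin chain of hemidesmosomes, read 934, 812 and 912 (WT) and 5.69, 13.8 and 12.1 (p53- Myc+) (-5.10 ± 0.17).

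The claudins that seal tight junctions gave some of the lowest readings. Cldn7 read 1612, 1335 and 1583 in WT and 1.32, 0.00305 and 3.2 in p53- Myc+ arrays (-6.44 ± 0.16, adjusted p = 2.89e-18), and Cldn4 read 2018, 2001 and 2043 (WT) and 8.65, 10 and 5.81 (p53- Myc+) (-6.40 ± 0.17). F11r (JAM-A) read 1026, 1147 and 1064 (WT) and 7.77, 0.737 and 0.00549 (p53- Myc+) (-5.88 ± 0.16). It averaged 74.2 ± 4.68 in p53- Rb- Myc+ arrays (SD, n = 3), above the p53- Myc+ arrays (2.28 ± 0.16, adjusted p = 1.62e-09; 4.69% of all genes passed between both MYC groups). Cldn8 and Cldn12 did not pass.

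The factors of the ZEB and SNAIL families are known to bind the E-box CACCTG, and they repress epithelial genes. The element was searched on both strands (CACCTG or CAGGTG) in RefSeq promoters of 300 bases, from 250 before to 50 after the annotated start. Of 13 tight junction genes with a promoter in that table, 9 held it (69.2%), as did 6 of 8 keratin genes (75.0%), 4 of 8 epithelial regulators, 1 of 4 adherens junction genes (25.0%) and the 1 desmosome gene with a promoter there, against 3465 of 15614 array genes (22.2%) and 6640 of all 32851 promoters (20.2%). A match is a string of letters and not a site of binding. Shown are 120 bases upstream of the start, ending 35 bases before it for Cldn7, for the 2 tight junction genes with a match and the smallest p, from RefSeq on GRCm38.p6, with the element in capitals; Cldn7 lies at chr11:69965267-69965386, plus strand and Cldn4 at chr5:134946935-134947054, minus strand.
Cldn7: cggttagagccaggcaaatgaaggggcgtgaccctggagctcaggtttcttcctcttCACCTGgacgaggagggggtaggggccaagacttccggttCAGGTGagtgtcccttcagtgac
Cldn4: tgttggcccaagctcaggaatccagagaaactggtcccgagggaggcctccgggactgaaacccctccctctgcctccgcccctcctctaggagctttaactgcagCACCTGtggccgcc

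Epithelial regulators fell without exception: 17 of 17 fell, with a median of -3.43. Esrp1, a splicing factor that sets epithelial isoforms, read 872, 777 and 928 in WT and 28.7, 21.1 and 37.4 in p53- Myc+ arrays (-4.29 ± 0.17, adjusted p = 2.23e-15). The Grainyhead factor Grhl2 fell with -3.43 ± 0.17 and the ETS factor Ehf with -4.73 ± 0.21. St14 (matriptase) and its inhibitor Spint2 both dropped to the floor, St14 from 1019, 857 and 1031 to 5.91, 0.398 and 0.00362 and Spint2 from 1118, 1246 and 1056 to 5.08, 4.1 and 2.14. With p53 loss alone 8 of these 17 fell and 0 rose (median -0.44), against 9.71% and 19.3% of all genes. Among the 8 were Ehf (-1.27 ± 0.21, adjusted p = 0.000116) and Rab25 (-0.80 ± 0.16, adjusted p = 0.000974), a small GTPase of epithelial membrane traffic. Esrp1, Grhl2, St14 and Spint2 did not pass there.

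Transcription factors that drive epithelial-mesenchymal transition (EMT) were higher in p53- Myc+ arrays. Of 10, 9 rose and 1, Foxc1, fell, with a median of 1.07. In p53- against WT arrays 5 rose and 1 fell, against 19.3% and 9.71% of all genes. Against p53- arrays, 6 rose and 1 fell, against 13.1% and 20.2% of all genes.

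Prrx1, a homeobox factor of mesenchyme, read 300.3, 331 and 326 in WT and 1548, 1575 and 1341 in p53- Myc+ arrays (2.16 ± 0.16, adjusted p = 2.44e-10), with no overlap. Zeb2 read 81.6, 93.9 and 103 (WT) and 400.5, 445 and 302 (p53- Myc+) (1.86 ± 0.18), and Twist1 read 76.1, 64.4 and 49.5 (WT) and 270.0, 304 and 239.8 (p53- Myc+) (1.86 ± 0.17). Twist2 averaged 349 ± 30.3 in WT, 182 ± 26.3 in p53- and 1162 ± 93.3 in p53- Myc+ arrays (SD, n = 3), so it fell with p53 loss alone (-0.89 ± 0.21) and rose in p53- Myc+ arrays (1.69 ± 0.21). Zeb1 (0.79 ± 0.19), Snai2 (0.87 ± 0.17) and Snai1 (0.67 ± 0.21) had smaller rises.

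The mesenchymal list did not move as a whole: 6 of 19 rose and 7 fell, against 23.4% and 20.9% of all genes. Its median was -0.03, or 0.07 with each array centred on its median. Vim (vimentin), the filament protein of mesenchymal cells, read 1117, 971 and 1108 in WT, 1677, 1717 and 1651 in p53- and 2579.7, 2682 and 2959 in p53- Myc+ arrays. It rose against WT (1.35 ± 0.15, adjusted p = 1.31e-07) and against p53- (0.70 ± 0.15). Cd44, a hyaluronan receptor often used as a mesenchymal and stem cell marker, went the other way, from 1498, 1648 and 1585 to 23.9, 17.7 and 32.3 (-5.31 ± 0.17). Nt5e (CD73) fell from 464, 517 and 549.8 to 11.5, 15.3 and 19.9 (-4.07 ± 0.17), and Fn1 (fibronectin) and Tnc (tenascin C) fell with -1.83 ± 0.14 and -2.34 ± 0.16.

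Matrix genes moved in both directions. Of 23 collagen genes 7 rose and 9 fell, against 23.4% and 20.9% of all genes. The basement membrane chains Col4a1 (-2.77 ± 0.16), Col4a2 (-2.45 ± 0.17) and Col18a1 (-3.59 ± 0.20) fell, and the fibrillar chains Col1a1, Col1a2, Col3a1 (0.51 ± 0.16), Col5a1 (0.82 ± 0.18) and Col5a2 (0.53 ± 0.20) rose, while the fibrillar Col11a1 (-2.22 ± 0.16) and Col5a3 (-2.05 ± 0.21) fell. Of 21 matrix protease and inhibitor genes 15 fell and 3 rose, against 20.9% and 23.4% of all genes. Timp3, an inhibitor of metalloproteases, read 2293, 2385 and 2511 in WT and 6.93, 21.4 and 4.57 in p53- Myc+ arrays (-6.53 ± 0.19, adjusted p = 3.05e-17), and the gelatinase Mmp9 read 588, 579.9 and 742 (WT) and 20.2, 20.1 and 10.3 (p53- Myc+) (-4.32 ± 0.16). Plau (urokinase) fell from 1312, 1636 and 1588 to 82, 145 and 96.4. The 3 that rose were Mmp19 (1.43 ± 0.20), Mmp2 (0.89 ± 0.17) and Plat (0.51 ± 0.16). Plat lost its call without WT replicate 1 (adjusted p = 0.0861).

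**Figure D3:**
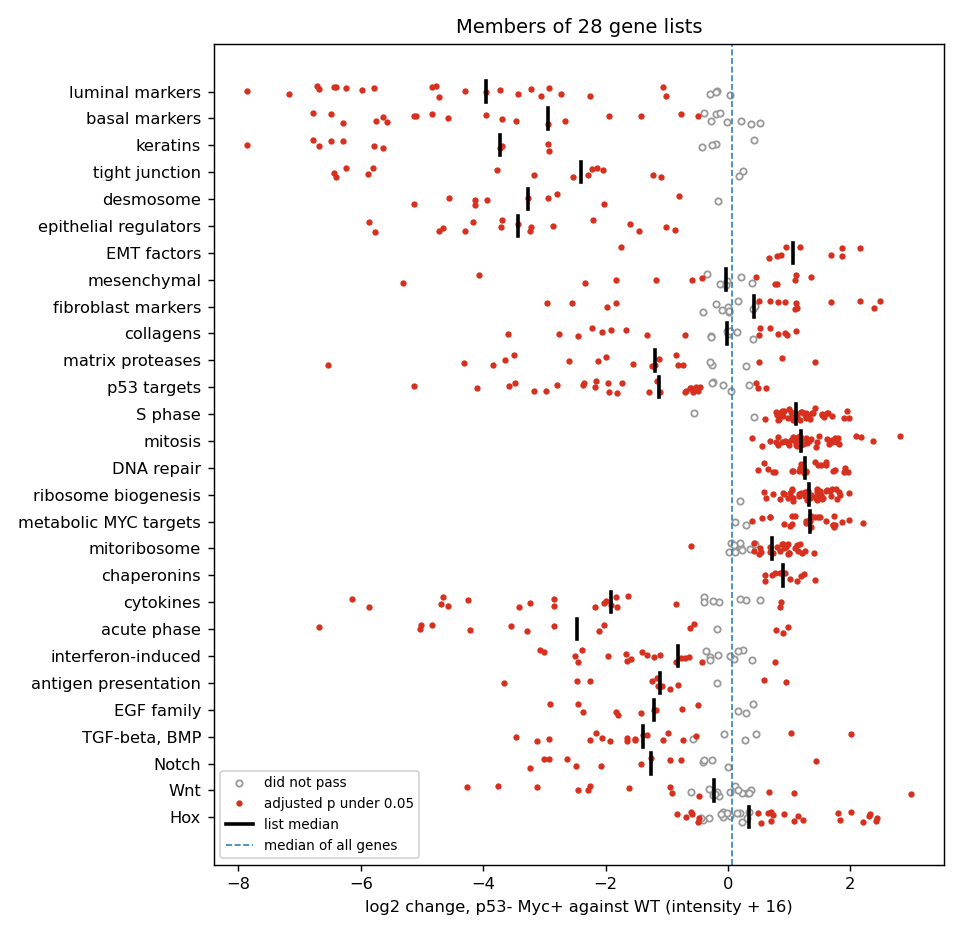
Log2 change between p53- Myc+ and WT arrays (x axis) for each member of 28 gene lists (y axis); red points passed at an adjusted p under 0.05, open points did not, black bars are list medians and the dashed line is the median of all genes, 0.07. Epithelial lists extend far to the left, and division, repair and ribosome lists lie to the right of the dashed line.

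Genes of cell growth known as MYC targets rose. Of 44 ribosome biogenesis genes 43 rose and 0 fell, with a median change of 1.33; Nop10 did not pass (0.19 ± 0.23). The median intensity of this list was 230.1, 227 and 283 in WT, 339, 368 and 369.9 in p53- and 705, 700.2 and 652 in p53- Myc+ arrays. Already 25 rose and 1 fell with p53 loss alone, and against p53- arrays 36 rose and 0 fell. Of 29 metabolic genes known as MYC targets 27 rose (median 1.35), against 11 rises and 1 falls with p53 loss alone.

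Nolc1, a nucleolar chaperone of ribosome assembly, read 373, 345 and 401 in WT and 1464, 1230.1 and 1273 in p53- Myc+ arrays (1.78 ± 0.16, adjusted p = 6.55e-09). Polr1e, a subunit of RNA polymerase I, which transcribes ribosomal RNA, read 81.5, 59.7 and 67.8 (WT) and 266, 292 and 295 (p53- Myc+) (1.82 ± 0.15). Dkc1 (dyskerin), which modifies ribosomal RNA, read 197, 216 and 250.1 (WT) and 898, 848 and 743 (p53- Myc+) (1.84 ± 0.17), with p53- arrays between at 451, 473 and 550.0. For all 3 genes every p53- Myc+ array exceeded every WT array.

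The E-box CACGTG, to which MYC with MAX binds, was searched in the same promoters; it reads the same on both strands and does not overlap CACCTG. Of 39 ribosome biogenesis genes with a promoter 10 held it (25.6%), as did 5 of 26 metabolic genes (19.2%), 3 of 30 mitochondrial ribosome genes (10.0%) and 1 of 10 chaperonin genes (10.0%). Among array genes 1483 of 15614 held it (9.5%), and among all promoters 2349 of 32851 (7.15%). The 2 ribosome biogenesis genes with an upstream match and the smallest p were Utp18 (chr11:93885767-93885886, minus strand) and Nop2 (chr6:125131763-125131882, plus strand), both parts of the machinery that processes ribosomal RNA, with changes of 1.60 ± 0.17 and 1.06 ± 0.16. Their 120 bases before the start are printed with the element in capitals.
Utp18: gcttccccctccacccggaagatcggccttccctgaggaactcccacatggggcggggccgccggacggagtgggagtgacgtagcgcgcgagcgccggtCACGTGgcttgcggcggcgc
Nop2: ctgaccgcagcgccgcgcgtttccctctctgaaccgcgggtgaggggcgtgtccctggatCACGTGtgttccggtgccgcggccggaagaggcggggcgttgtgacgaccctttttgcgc

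Mthfd2, a mitochondrial enzyme of folate metabolism, read 175, 136 and 229 in WT, 536, 458 and 678 in p53- and 937, 827 and 845 in p53- Myc+ arrays (2.20 ± 0.19 against WT and 0.64 ± 0.19 against p53-). Its level was already higher in all p53- arrays than in any WT array. Mthfd1l, a related mitochondrial enzyme, read 122, 119 and 135 (WT), 114, 139 and 160.5 (p53-) and 441, 429 and 469.8 (p53- Myc+), and was not called with p53 loss alone (0.11 ± 0.15). The pyrimidine enzymes Cad (1.74 ± 0.17), Umps (1.73 ± 0.15) and Dhodh (1.71 ± 0.15) all rose, as did Srm (spermidine synthase, 1.86 ± 0.18). Odc1 (ornithine decarboxylase, 0.12 ± 0.16) and Nme1 (0.29 ± 0.17), both long listed among MYC targets, did not pass.

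Mitochondrial ribosome genes rose against WT and against p53- arrays. Of 36, 25 rose and 1 (Mrps28) fell against WT, 3 rose and 5 fell with p53 loss alone, and 30 rose and 0 fell in p53- Myc+ against p53- arrays. Mrps28 lost its call without WT replicate 2 (adjusted p = 0.0589). Their median intensity was 252, 226 and 210.4 in WT, 229.8, 229.7 and 230.3 in p53- and 401, 427 and 433 in p53- Myc+ arrays. All 12 chaperonin and mitochondrial chaperone genes rose (median 0.90), with Hspd1 (HSP60) at 957, 954 and 1085 in WT and 2504, 2236 and 2427 in p53- Myc+ arrays. Of 14 amino acid and nucleoside transporters 8 rose, led by the glutamine carrier Slc1a5, which read 282, 295 and 233 in WT and 857, 1013 and 907 in p53- Myc+ arrays (1.72 ± 0.18). Slc7a11, the cystine carrier, fell (-0.61 ± 0.19), but did not pass without WT replicate 3 or without p53- Myc+ replicate 3 (adjusted p = 0.0771 and 0.0524).

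Glycolysis genes did not share a direction: 3 of 16 rose, namely Pfkm (1.08), Hk2 (1.03) and Ldha (0.39), and 3 fell, namely Ldhb (-3.09), Aldoc (-2.74) and Slc2a1 (-0.94). Neither count exceeded the share of all genes that rose (23.4%) or fell (20.9%). Quantile normalization gave 5 rises, and Ldha lost its call when any of 5 of the 6 arrays was left out, the exception being p53- Myc+ replicate 1. Of 17 hypoxia-induced genes 6 rose and 6 fell, against 23.4% and 20.9% of all genes. Pdk1, which holds pyruvate back from mitochondria, rose (1.65 ± 0.17), and Bhlhe40 fell from 769.9, 803 and 836 to 97.9, 72.1 and 116 (-2.90 ± 0.19). Of 19 cholesterol synthesis genes 9 rose and 4 fell, against 23.4% and 20.9% of all genes, so the falls were near that share. Mvk (mevalonate kinase, 1.29 ± 0.17) led the rises, and the falls were Ebp (-0.80), Hsd17b7 (-0.51), Sc5d (-0.46) and Tm7sf2 (-0.41). The rises numbered 5 without p53- Myc+ replicate 1, and the falls 1 or 2 without WT replicate 3 or p53- Myc+ replicate 1 or 3.

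Partners and rivals of MYC in the MAX network moved in both directions, with 3 of 13 higher and 6 lower. Of all genes 23.4% rose and 20.9% fell. Besides Myc the falls included Mxd4, a MAX partner that opposes MYC, at 288, 266 and 277 in WT, 132, 122 and 118 in p53- and 96.3, 77.7 and 88.5 in p53- Myc+ arrays (-1.51 ± 0.16), and the related Mxd1 (-1.54 ± 0.18). The rises were Mxd3 (1.08 ± 0.28), Mga (0.93 ± 0.24) and Mxi1 (0.51 ± 0.18). Mxi1 lost its call without WT replicate 1 or without p53- Myc+ replicate 2 (adjusted p = 0.0848 and 0.105). Without WT replicate 3 and p53- Myc+ replicate 2, the arrays of lowest estimated weight in their groups, only Mxd3 of these 3 passed, and Mga had an adjusted p of 0.0534. Max itself did not pass (0.35 ± 0.17).

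Cell division genes were higher in p53- Myc+ than in WT arrays. Of 43 mitosis genes 43 rose (median 1.20), 37 already with p53 loss alone (median 0.89), and 0 fell there. In p53- Myc+ against p53- arrays 17 of them rose, 2 fell, namely the kinetochore genes Cenpe (-0.83 ± 0.27) and Cenpf (-0.73 ± 0.28), and 24 did not pass. Median intensities of the mitosis list were 158, 134 and 160.2 in WT, 313, 320.0 and 345 in p53- and 443, 437 and 427 in p53- Myc+ arrays. Of 43 S-phase genes 41 rose (median 1.12), 20 with p53 loss alone and 35 in p53- Myc+ against p53- arrays. Rrm2 (-0.55 ± 0.27) and Rfc2 (0.42 ± 0.19) did not pass. All 24 DNA repair genes measured rose (median 1.26), 19 of them with p53 loss alone; against p53- arrays 12 rose, 1 fell and 11 did not pass.

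Bub1b, a spindle checkpoint kinase-like protein, read 115, 62.5 and 116 in WT, 296, 325 and 304 in p53- and 733, 824 and 731 in p53- Myc+ arrays (2.81 ± 0.18, adjusted p = 8.77e-12). The 3 groups of arrays did not overlap. Smc4, a condensin subunit that compacts chromosomes, read 113, 125 and 138 (WT), 786, 647 and 853 (p53-) and 653, 591 and 514 (p53- Myc+). It rose against WT (2.08 ± 0.19) but did not pass against p53- (-0.37 ± 0.19, adjusted p = 0.149). Parp1, a sensor of DNA breaks, showed the other order, at 209, 185 and 165 (WT), 204, 245 and 238 (p53-) and 596, 585 and 607 (p53- Myc+). It rose against p53- (1.32 ± 0.15) and did not pass between p53- and WT (0.28 ± 0.15).

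The E2F factors, which Rb holds back, bind a GC-rich element that was searched on both strands as the letters TTCCCGC, the variant TTGGCGC, the variant TTCGCGC or the variant TTGCCGC; matches may overlap. Of 37 S-phase genes with a promoter 24 held a match (64.9%), and of 35 mitosis genes 6 did (17.1%), against 2297 of 15614 array genes (14.7%) and 3145 of 32851 promoters (9.57%). The 2 S-phase genes with an upstream match and the smallest p were Prim1, the small subunit of DNA primase (chr10:128015095-128015214, plus strand), and Hells, a chromatin remodelling helicase (chr19:38930870-38930989, plus strand). Prim1 read 178, 99.9 and 132 in WT, 228, 198 and 213 in p53- and 457, 421 and 467 in p53- Myc+ arrays. Hells read 63.2, 83.3 and 101 (WT), 379, 334 and 439 (p53-) and 389, 399 and 297 (p53- Myc+), so it rose with p53 loss alone (2.03 ± 0.21) and did not pass against p53- arrays (-0.09 ± 0.21, adjusted p = 0.799). Capitals mark the matches in the 120 bases before each start.
Prim1: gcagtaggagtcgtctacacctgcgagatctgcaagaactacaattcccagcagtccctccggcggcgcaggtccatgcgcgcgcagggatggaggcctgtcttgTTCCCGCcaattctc
Hells: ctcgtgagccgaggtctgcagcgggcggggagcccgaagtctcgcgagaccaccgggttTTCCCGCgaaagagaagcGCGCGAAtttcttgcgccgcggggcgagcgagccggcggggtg

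Of 21 genes for G1 cyclins, their kinases, pocket proteins and E2Fs 11 rose and 2, Rb1 and Ccnd1, fell. The shares of all genes were 23.4% and 20.9%. Ccne2 (cyclin E2) read 31.3, 23.6 and 19.7 in WT, 147, 99.3 and 152 in p53- and 176, 137 and 196 in p53- Myc+ arrays (2.18 ± 0.20). Ccnd1 (cyclin D1) read 2436, 2388 and 2401 (WT), 2433, 3487 and 2163 (p53-) and 1007, 1261 and 1190.1 (p53- Myc+) (-1.06 ± 0.18), with all p53- Myc+ arrays below all others. Cdkn2a, the locus of p16 and of the p53 activator p19ARF, read 83.4, 59.8 and 47 (WT), 152, 169 and 148 (p53-) and 489.5, 639.6 and 469.7 (p53- Myc+) (2.80 ± 0.19, adjusted p = 2.6e-11). The values rose in order of the groups without overlap, and the probe set does not separate both transcripts. Among other CDK inhibitors Cdkn2c rose (0.65 ± 0.16) and Cdkn1c fell (-0.75 ± 0.17). Cdkn2b fell (-0.62 ± 0.22) but lost its call without WT replicate 1 or 2 or without p53- Myc+ replicate 1 or 3 (adjusted p from 0.0618 to 0.0833).

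**Figure D4:**
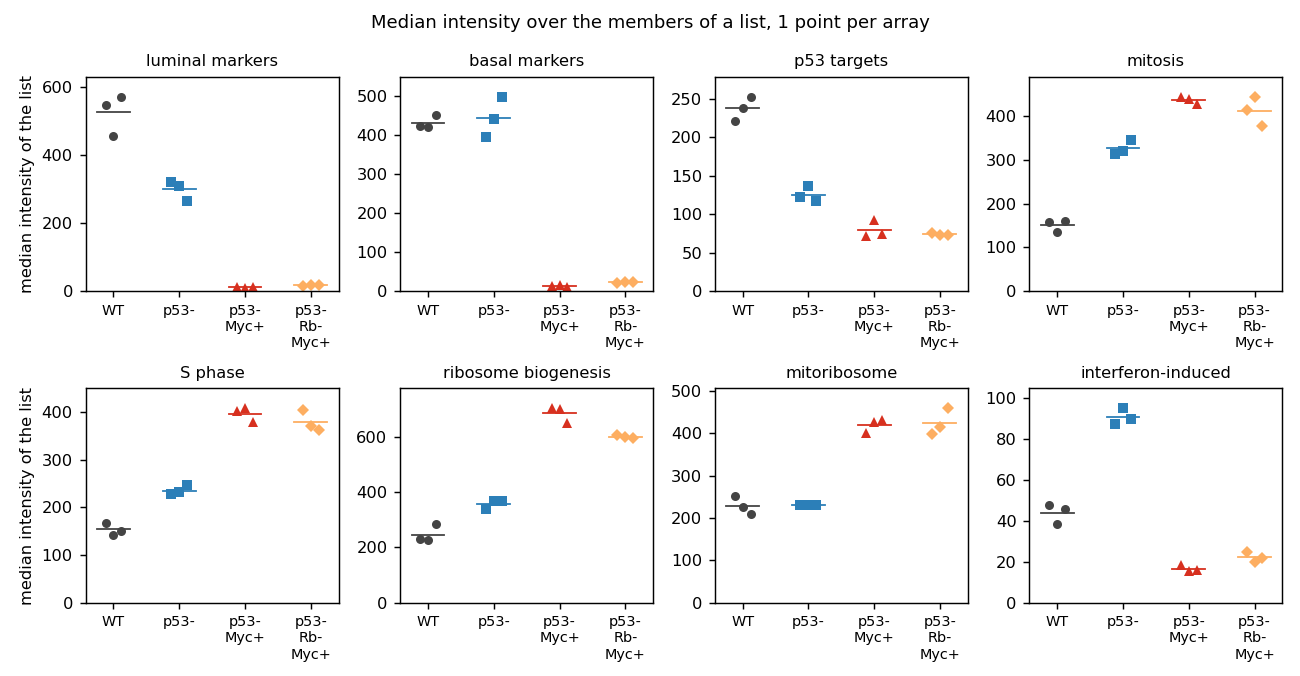
Median intensity over the members of 8 lists (y axis, linear, from 0), with 1 point per array and a bar at the mean of 3 arrays, for WT, p53-, p53- Myc+ and p53- Rb- Myc+ arrays. Mitosis and S-phase levels step up from WT to p53- to p53- Myc+, mitochondrial ribosome levels are higher in both MYC groups than in the others, and interferon-induced genes are highest in p53- and lowest in MYC arrays.

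Genes known to be activated by p53 were lower in p53- Myc+ arrays than in WT. Of 34 measured 26 fell and 3 rose, against 20.9% and 23.4% of all genes, with a median of -1.13. In p53- against WT arrays 18 fell and 3 rose (median -0.57), against 9.71% and 19.3% of all genes. In p53- Myc+ against p53- arrays 20 fell and 4 rose, against 20.2% and 13.1% of all genes. Ephx1 (epoxide hydrolase) read 343, 262 and 339 in WT, 61.8, 68.4 and 68.2 in p53- and 8.7, 10.4 and 16.2 in p53- Myc+ arrays (-3.57 ± 0.16, adjusted p = 2.08e-14). Mdm2, the ubiquitin ligase that degrades p53, read 559, 724 and 921 (WT), 382, 453 and 421 (p53-) and 186, 221 and 178 (p53- Myc+) (-1.81 ± 0.19). Both fell in each step with no overlap of WT with the other groups. Perp, a target that is also a desmosome protein, read 842, 735 and 749 (WT), 753, 748 and 758 (p53-) and 5.91, 4.61 and 9.4 (p53- Myc+), with no call for p53 loss alone (-0.04 ± 0.15). Pmaip1 (NOXA) averaged 57.1 ± 12.2 in WT, 186 ± 32.1 in p53- and 2.81 ± 2.01 in p53- Myc+ arrays (SD, n = 3). The 3 that rose were Ckap2 (0.63 ± 0.17), Tigar (0.48 ± 0.16) and Sesn1 (0.46 ± 0.17), and only Ckap2 passed without WT replicate 1 or without p53- Myc+ replicate 2. Sesn1 also did not pass without p53- Myc+ replicate 3 (adjusted p = 0.0891).

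Of 24 apoptosis genes 14 fell and 3 rose, against 20.9% and 23.4% of all genes, so the rises were below that share. The initiator caspase Casp8 read 353, 291 and 328 in WT and 50.2, 54.5 and 59.2 in p53- Myc+ arrays (-2.27 ± 0.15), and the survival gene Bcl2l1 (BCL-XL) read 1007, 1011 and 1258 (WT) and 256, 334 and 302 (p53- Myc+) (-1.82 ± 0.17). Genes on both sides of cell death were thus among the falls. The rises were Casp12 (0.79), Casp2 (0.78) and Casp4 (0.50), and Casp4 lost its call without WT replicate 1 or 2 or without p53- Myc+ replicate 1 or 2 (adjusted p from 0.0622 to 0.135), whereas Bcl2 (-0.03 ± 0.26) and Mcl1 (0.04 ± 0.20) did not pass.

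Secreted inflammatory signals were strongly lower. Of 27 cytokine genes 18 fell and 2 rose (median -1.91), against 20.9% and 23.4% of all genes. The rises were Ccl2 (0.86) and Il33 (0.86). Csf3 (G-CSF), which calls up neutrophils, read 1803, 2098 and 1898 in WT, 424, 683 and 252 in p53- and 11.2, 14.9 and 8.79 in p53- Myc+ arrays (-6.14 ± 0.25, adjusted p = 4.88e-15). Il1a read 478, 479 and 519 (WT), 823, 557 and 827 (p53-) and 9.82, 18.5 and 5.17 (p53- Myc+) (-4.25 ± 0.21). Csf3 was thus already lower in p53- arrays (-2.16 ± 0.25), and Il1a did not pass there (0.54 ± 0.21). Lif, a cytokine of the interleukin 6 family, fell from 1287, 1177 and 1236 to 28.6, 50.2 and 32.4 (-4.58 ± 0.18).

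Acute phase and antimicrobial genes showed 12 falls and 3 rises among 16, and 10 falls and 0 rises with p53 loss alone. The shares of all genes were 20.9% and 23.4%, and 9.71% and 19.3% with p53 loss alone. S100a8, a calcium-binding alarm protein, read 3088, 2895 and 2699.8 in WT, 801, 353 and 305 in p53- and 8.77, 10.7 and 18.2 in p53- Myc+ arrays (-6.68 ± 0.24). Saa1 (serum amyloid A) read 476, 398 and 364 (WT), 7.2, 4.41 and 7.93 (p53-) and 9.65, 7.76 and 4.05 (p53- Myc+), so it was near the floor with p53 loss alone, and p53- Myc+ against p53- did not pass (0.04 ± 0.17). Lcn2 (lipocalin 2), an iron-trapping protein, read 6119.8, 5631 and 5034 (WT), 4974, 4834 and 4296 (p53-) and 151, 153 and 169 (p53- Myc+) (-5.01 ± 0.15), and averaged 939 ± 130.4 in p53- Rb- Myc+ arrays (SD, n = 3), above p53- Myc+ (2.45 ± 0.15). The rises were C1s1 (0.99), Saa3 (0.90) and C1ra (0.78).

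Many interferon-induced genes rose with p53 loss alone, and many fell in p53- Myc+ arrays. With p53 loss alone 14 of 28 rose and 0 fell (median 0.60), against 19.3% and 9.71% of all genes (median 0.12). The p53- arrays had higher median intensities over all probe sets than the WT arrays, and this count was not repeated after centring. Against WT the p53- Myc+ arrays showed 18 falls and 1 rise, Ifit2 (0.77), with a median of -0.81. Ifit2 did not pass without WT replicate 1 (adjusted p = 0.0581). Against p53- 24 fell and 0 rose, against 20.2% and 13.1% of all genes. Median intensities of the list were 47.7, 38.7 and 45.7 in WT, 87.5, 95.2 and 89.6 in p53- and 18.4, 15.6 and 15.8 in p53- Myc+ arrays, and 8 members stood under 32 in all WT arrays. Ddx58 (RIG-I), a sensor of viral RNA, read 269, 193 and 325 (WT), 308, 373 and 335 (p53-) and 23.6, 40.7 and 38.7 (p53- Myc+) (-2.45 ± 0.20). Bst2 (tetherin) read 343, 480.0 and 365 (WT), 289.7, 411 and 265 (p53-) and 64.6, 47 and 58.8 (p53- Myc+) (-2.49 ± 0.20). Of 12 antigen presentation genes 9 fell and 2 rose against WT, beside 20.9% and 23.4% of all genes. The rises were Psmb10 (0.94) and Tap2 (0.59), Tap2 not without WT replicate 2 (adjusted p = 0.072). The immunoproteasome subunit Psmb8 read 285, 185 and 224 in WT and 0.0402, 2.82 and 7.62 in p53- Myc+ arrays (-3.66 ± 0.25), whereas B2m fell by less (-1.09 ± 0.15).

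Growth factor pathways lost many ligands and receptors. Of 13 EGF family genes 10 fell and 0 rose, against 20.9% and 23.4% of all genes. The ligands Epgn (-2.46 ± 0.20), Ereg (-2.36 ± 0.26), Tgfa (-1.82 ± 0.18) and Hbegf (-1.80 ± 0.17) fell, and among receptors Erbb3 read 167, 115 and 193 in WT and 6.57, 1.91 and 13.6 in p53- Myc+ arrays (-2.90 ± 0.19), Egfr fell with -1.43 ± 0.17 and Erbb2 with -1.17 ± 0.19. All cultures were given EGF in the medium. Of 12 genes of the insulin-like growth factor axis 9 fell and 3 rose, against 20.9% and 23.4% of all genes. The rises were Igfbp6 (0.87), Igf2bp3 (0.52) and Igf1r (0.46). Only Igfbp6 passed without WT replicate 2 or p53- Myc+ replicate 2, and Igf1r also lost its call without WT replicate 1 or p53- Myc+ replicate 1 and with the replicate number as a block (adjusted p from 0.0528 to 0.172). Igfbp5, a binding protein, read 622, 504 and 529 (WT) and 17.3, 26 and 11.6 (p53- Myc+) (-4.06 ± 0.20). Igfbp4 read 321, 401 and 431 in WT and 32.3, 31.9 and 34.1 in p53- Myc+ arrays. The p53- Rb- Myc+ arrays stood above both, at 698, 745 and 783, and differed from p53- Myc+ (3.96 ± 0.19, adjusted p = 2.82e-12).

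Of 23 TGF-beta and BMP genes 17 fell and 2 rose (median -1.38), against 20.9% and 23.4% of all genes. Among ligands, Tgfb1 read 339, 317 and 362 in WT and 20.3, 22.4 and 32.8 in p53- Myc+ arrays (-3.12 ± 0.16), and Inhba, the activin A subunit, read 881, 1111 and 1439 (WT) and 66.1, 117 and 82.8 (p53- Myc+) (-3.47 ± 0.21) with p53- arrays at 2067, 2072 and 2261. Among receptors Tgfbr2 fell (-2.06 ± 0.22) and the co-receptor Tgfbr3 rose (2.02 ± 0.20), and the feedback inhibitor Smad7 fell (-2.16 ± 0.19). The second rise was Id2 (1.03 ± 0.16), while Id1 and Id3 fell (-1.33 ± 0.16 and -1.07 ± 0.15).

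Of 15 Notch pathway genes 10 fell and 1 rose, against 20.9% and 23.4% of all genes. The rise was the DNA-binding partner Rbpj (1.44 ± 0.15). Read from the lowest probe set per gene, Rbpj changed by -0.26 (adjusted p = 0.265). The receptor Notch1 read 287, 267 and 321 in WT and 21.7, 25.4 and 19.8 in p53- Myc+ arrays (-3.01 ± 0.16), the ligand Jag1 read 378, 470.0 and 482 (WT) and 35.8, 45.8 and 51.8 (p53- Myc+) (-2.93 ± 0.19), and the target Hes1 read 492, 546 and 569 (WT) and 60.9, 90.4 and 70.6 (p53- Myc+) (-2.63 ± 0.20). None of these overlapped. Of 26 Wnt genes 10 fell and 3 rose, against 20.9% and 23.4% of all genes, and 13 did not pass. The rises were thus below that share. The ligands Wnt7b (-4.27 ± 0.16), Wnt5b (-3.76 ± 0.15) and Wnt7a (-2.26 ± 0.17) and the receptor Fzd6 (-3.12 ± 0.20) fell. Sfrp2, a secreted modulator of Wnt signals, read 109, 75.8 and 106 in WT, 31.2, 29.8 and 23 in p53- and 829, 856 and 943 in p53- Myc+ arrays (2.99 ± 0.20), the lowest values being those of p53- arrays; Fzd2 (1.08) and Lrp6 (0.67) also rose, Lrp6 not without WT replicate 2 or p53- Myc+ replicate 2 (adjusted p = 0.0593 and 0.0659).

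Homeobox genes of the Hox clusters, which encode position along the body axis, included 18 rises and 6 falls among 37. The shares of all genes were 23.4% and 20.9%, and 15 members stood under 32 in all WT arrays. Hoxc6 read 32.6, 35.7 and 39 in WT, 50.4, 47.9 and 49.9 in p53- and 273, 262 and 254 in p53- Myc+ arrays (2.43 ± 0.17, adjusted p = 6.87e-11). Hoxc10 read 47.9, 48.8 and 32.9 (WT) and 245, 272 and 316 (p53- Myc+) (2.32 ± 0.17), and Hoxa10 read 15.4, 16.8 and 9.78 (WT) and 139, 135 and 122 (p53- Myc+) (2.31 ± 0.19). The p53- Myc+ arrays lay above all WT arrays for these genes and for Hoxa9 (2.21 ± 0.18) and Hoxc9 (2.42 ± 0.21). Falls included Hoxb5 (-0.84 ± 0.19) and Hoxb4 (-0.68 ± 0.17); the falls numbered 3 without p53- Myc+ replicate 3 and 3 with centring or quantile normalization, and testing only genes at or above the median level left 4 rises and 1 fall.

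**Figure D5:**
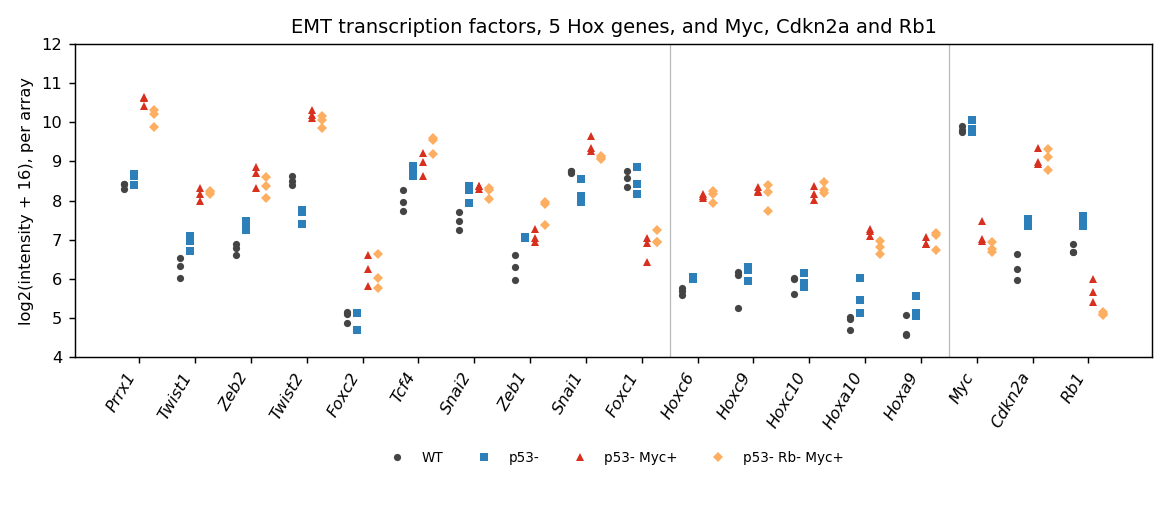
Each point is 1 array; the y axis is log2(intensity + 16); grey circles are WT, blue squares p53-, red triangles p53- Myc+ and orange diamonds p53- Rb- Myc+ arrays. Hoxc6, Hoxc9, Hoxc10, Hoxa10 and Hoxa9 stand apart in both MYC groups, Cdkn2a steps up from WT to p53- to p53- Myc+, and Myc and Rb1 are lower in both MYC groups.

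The genes with the largest rises at or above the median level were Peg10, Brinp3, Klhl13, Vcam1, Aldh1a1, Rcor2, Fgf7, Ebf3, Meox2, Tbx15, Sfrp2 and Plac8. Peg10, an imprinted gene of retrotransposon origin, read 82.1, 28 and 56 in WT, 118, 152 and 109 in p53- and 1188, 1658 and 1112 in p53- Myc+ arrays (4.28 ± 0.24, adjusted p = 1.79e-12). Vcam1, a cell adhesion molecule that binds integrins, read 37, 34.6 and 82.6 (WT) and 867, 883 and 854 (p53- Myc+) (3.78 ± 0.21). Fgf7, a growth factor of mesenchyme that acts on epithelia, read 76.6, 81.7 and 165 (WT), 341, 275 and 370.0 (p53-) and 1256, 1127 and 896 (p53- Myc+) (3.22 ± 0.24), with p53- arrays between. The mesodermal transcription factors Meox2 (3.03 ± 0.21), Tbx15 (3.01 ± 0.16) and Ebf3 (3.20 ± 0.14) rose too, the highest WT array being 40.7 (Ebf3) and the lowest p53- Myc+ array 306 (Tbx15). Klhl13, an adaptor of a ubiquitin ligase, read 24.4, 32 and 40.1 in WT and 795, 673 and 667 in p53- Myc+ arrays. The p53- Rb- Myc+ arrays stood at the WT level, at 27.6, 31.9 and 36.6, and differed from p53- Myc+ (-3.92 ± 0.20, adjusted p = 6.16e-12).

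The 12 lowest fitted changes among genes at or above the median level, all of which end near the floor and so have no order, were Krt18, Wfdc2, Clu, Ppbp, Krt5, Wfdc18, S100a8, Krt7, Timp3, Krt14, Cldn7 and Cldn4. Wfdc2, a secreted protease inhibitor of epithelia, read 3246, 3676 and 3222 in WT, 3293, 3303 and 3093 in p53- and 12, 0.811 and 11.7 in p53- Myc+ arrays (-7.17 ± 0.19). Clu (clusterin), a secreted chaperone, read 2842, 2545 and 2623 (WT), 2362, 2212 and 2300.3 (p53-) and 8.02, 5.14 and 0.00985 (p53- Myc+) (-7.06 ± 0.18). With p53 loss alone 6 of these 12 passed as lower: S100a8 (-2.66 ± 0.24), Wfdc18 (adjusted p = 3.4e-05), Timp3 (-0.69 ± 0.19), Cldn4 (-0.57 ± 0.17), Krt5 (-0.48 ± 0.18) and Cldn7 (-0.43 ± 0.16). Wfdc18 read 3366, 3209.7 and 2574 (WT), 694, 1494 and 397 (p53-) and 13.1, 10.6 and 15.7 (p53- Myc+).

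Genes of microRNAs were read at low levels on these arrays, and the probe sets report the gene region rather than the mature RNA. Of 25 such genes 5 rose and 1, Mir200a, fell, and 16 stood under 32 in all WT arrays. Neither count exceeded the share of all genes that rose (23.4%) or fell (20.9%). The rises were Mir17, Mir18, Mir20a and Mir19b-1, which lie in a single primary transcript on chromosome 14 that MYC is known to activate, and Mir143 (0.56 ± 0.20). Mir143 lost its call without WT replicate 3 or without p53- Myc+ replicate 1 or 2 (adjusted p from 0.0977 to 0.187), 3 rises were left without p53- Myc+ replicate 1, and the falls numbered 5 without WT replicate 3. Their mature sequences from RefSeq (GRCm38.p6) are shown with the seed, bases 2 to 8, in capitals; miR-17-5p (chr14:115043684-115043706, plus strand) and miR-20a-5p (chr14:115044183-115044205, plus strand) share a seed, that of miR-18a-5p (chr14:115043867-115043889, plus strand) differs, and miR-19b-3p (chr14:115044358-115044380, plus strand) has another. The miR-200a-3p (chr4:156054911-156054932, minus strand) is known to target Zeb1 and Zeb2.
miR-17-5p: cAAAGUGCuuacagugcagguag
miR-20a-5p: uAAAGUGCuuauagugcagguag
miR-18a-5p: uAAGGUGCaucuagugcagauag
miR-19b-3p: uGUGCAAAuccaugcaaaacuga
miR-200a-3p: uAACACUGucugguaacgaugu

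Mir17 read 24, 43.7 and 36.5 in WT and 58.4, 119 and 94.3 in p53- Myc+ arrays (1.05 ± 0.23, adjusted p = 0.000536), and Mir18 read 9.68, 13.6 and 9.83 (WT) and 35.3, 26.2 and 40.2 (p53- Myc+) (0.88 ± 0.18). Mir20a (0.81 ± 0.21) and Mir19b-1 (0.63 ± 0.20) rose by less. Mir19b-1 no longer passed without WT replicate 1 or p53- Myc+ replicate 1 (adjusted p = 0.0501 and 0.0984), and Mir19a, of the same transcript, did not pass (0.26 ± 0.24). The members share their transcript and are not independent of each other. Mir200a read 50.5, 32.2 and 32.7 in WT and 12.7, 32 and 12.5 in p53- Myc+ arrays (-0.66 ± 0.21), but did not pass without WT replicate 1 or without p53- Myc+ replicate 1 or 3 (adjusted p from 0.0663 to 0.0794). Mir200b (-0.33 ± 0.18), Mir200c (-0.21 ± 0.20), Mir141 (-0.30 ± 0.20) and Mir205 (-0.38 ± 0.20) did not pass.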

How the data were processed

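The authors deposited 1 linear intensity for each probe set and array, with values from 4.11e-05 to 8348.1. The submitters' processing notes name Affymetrix Expression Console 1.1, and per the labels' protocols the RNA was amplified with a WT-Ovation Pico kit. How probes were summarised, whether arrays were centred and when they were scanned is not stated in the labels or files used here. Of 35556 probe sets, 21789 had 1 gene symbol in the platform annotation, 1621 had several and 12146 were not listed. For each of 19938 genes the probe set with the highest mean over 15 arrays was kept. A single limma model (version 3.58.1, under R 4.3.3) with 5 group means, p53- Rb- cells included, was fitted to log2(intensity + 16) of all 15 arrays, with 10 residual degrees of freedom, 11.78 from the prior and a median residual SD of 0.2301. The code was tested on simulated data. Tests were 2-sided, with Benjamini-Hochberg adjustment over all genes. The comparisons among WT, p53- and p53- Myc+ share arrays and are not independent. The number of arrays limits the precision.

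Gene lists (45, with 869 genes measured in all) are described by counts and medians, without a test. Named were Rb1, Myc, the 12 highest and 12 lowest fold changes (passing, not below the median level, groups not overlapping), up to 5 members per list by smallest p, defining cell type markers, and the members behind counts of 5 or fewer. Other genes named here were chosen after their values were seen. The comparison, the lists and their members were chosen with earlier results of these data known. Promoters and microRNAs were matched by symbol to RefSeq tables of GRCm38.p6. Promoters of a single chromosome were left out when the printed genes were picked. The smallest p among genes with a match thus holds for the other chromosomes only. Alternatives changed the added constant, scaling, arrays, gene filter, probe set, variance model and replicate block.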

Additional observations from a re-analysis of the deposited data

How the results depend on the processing

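The comparison of p53- Myc+ with WT called 8820 genes, and its alternatives gave 6410 (genes at or above the median level, fewer being tested) to 9440 (each array centred on its median). Leaving out each array in turn gave 8054 to 8529. Centring moved the median change of all genes from 0.07 to 0.17. The comparison with p53- called 6640 genes, and 5646 to 6370 when leaving out each array in turn. Genes of the lists gave 655 calls, and 626 to 650 when leaving out each array. With the replicate number as a block, 8926, 6697 and 655 were called. Same-number arrays of p53- Myc+ and WT deviated from their group means with correlations of -0.0126, 0.0575 and 0.043. Those of p53- Myc+ and p53- gave 0.125, 0.151 and -0.0943, and differently numbered arrays of these groups gave -0.258 to 0.215. No pairing by number was visible, but with 3 arrays a group this check cannot exclude a shared animal or batch. Of 262 passing genes named by the rule, 236 kept direction and call in all 17 settings, 24 lost the call in at least 1, and 2 turned when each gene was read from its lowest probe set: Mrpl47 to -0.028 and Rbpj to -0.26. Leaving out the arrays of lowest weight together (WT replicate 3 with p53- Myc+ replicate 2, chosen after seeing the data) gave 8151 genes; Mir20a then had an adjusted p of 0.133 and Idi1 of 0.0635. Of 92 list counts, 38 moved by over 1.5 times in at least 1 setting; counts of 0 rises became 1 or 2 under some settings in the basal, endothelial, leukocyte, muscle and pericyte, keratin, hemidesmosome and EGF family lists. The cause was not tested.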

Other observations

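Of the 94 genes whose WT arrays all stood at 500 or above and whose p53- Myc+ arrays all stood under 32, 37 were in a list and 57 in none; the genes named here were chosen after their values were seen. Several are known from the cornified layer of the skin. Lce3c, a late cornified envelope gene, read 1647, 1677 and 1573 in WT, 205, 193 and 214 in p53- and 12.4, 7.95 and 10.2 in p53- Myc+ arrays (-5.98 ± 0.17). Lce1h read 882, 1062 and 812 (WT), 1279, 1379 and 1215 (p53-) and 9.99, 9.36 and 7.35 (p53- Myc+) (-5.22 ± 0.17), higher in p53- than in WT arrays. Sprr1b, a cornified envelope precursor, fell (-5.29 ± 0.17), as did Krtdap (-5.16 ± 0.26). The kallikrein protease Klk8 read 1889, 2041 and 1855 (WT), 2097, 2288 and 2084 (p53-) and 21.7, 9.91 and 14 (p53- Myc+) (-5.98 ± 0.16).

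Csn3 (kappa-casein), a milk protein gene, read 1316, 1494 and 1081 in WT, 2435, 2827 and 2143 in p53- and 12, 10.7 and 11.8 in p53- Myc+ arrays (-5.56 ± 0.19), with p53- arrays the highest. The defensin Defb14 read 1159.9, 1007 and 948 (WT), 111, 174 and 117 (p53-) and 8.54, 5.96 and 4.99 (p53- Myc+) (-5.55 ± 0.17). Fst (follistatin), which binds activin, fell from 1344, 1422 and 1457 to 27.9, 22.8 and 26.5 (-5.09 ± 0.17). The transcription factor Tfap2a fell from 708, 652 and 762 to 8.31, 17.3 and 5.31 (-4.80 ± 0.20).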
